A study of Mus musculus with 12 samples.

Results

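Pde6b encodes the beta subunit of the cyclic GMP phosphodiesterase of rod photoreceptors, and the set described here is Pde6b with 9 other genes of mouse chromosome 5, Hfm1, Mfsd7a, Crlf2, Zfp932, Zfp605, Pkd2, Fbrsl1, Gltp and Pptc7. They were listed because their RNA levels differed between Fmr1 knockout and FVB lines in these libraries, so the knockout against FVB values below describe how the genes were chosen and are given without a test. All 10 were found by symbol among the 57010 genes of the count table, and 9 of the 10 passed the filter on low counts. Pde6b did not pass it, and its counts were too few to show or to exclude a difference between the lines. The line differences described below are therefore those of the 9 other genes. RNA of the cerebellum, taken from crus 1, a lobule of the lateral hemisphere, by the title of the series, had been sequenced in bulk. There were 3 groups of 4 libraries: Fmr1 knockout mice given poly(I:C) into the peritoneal cavity (treated knockout), Fmr1 knockout mice given saline (saline knockout) and FVB mice given saline (FVB). Poly(I:C) resembles viral RNA and sets off interferon responses. The sources used here do not give the Fmr1 allele, the age of the mice, the dose or the time after injection. FVB mice with poly(I:C) were not analysed here.

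In rods, light-activated transducin releases the catalytic alpha and beta subunits of this phosphodiesterase from their inhibitory gamma subunits, and the fall of cyclic GMP closes the cation channels of the outer segment. FVB is an inbred strain that carries a retinal degeneration allele of Pde6b and is blind as an adult, and sighted FVB sublines into which a functional Pde6b allele was bred, with its flanking chromosome, are also in use. The sources used here do not name the sublines behind the knockout and FVB samples, and the deposited counts hold no genotypes. Mfsd7a, Crlf2 and Zfp932 are among the 20 tested genes that follow Pde6b, the others lie further away on the chromosome, and the products of the 9 genes act in unrelated processes.

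The 250 bases before the start of 5 genes are shown for reference: Pde6b, after which the set is named, Zfp605, Zfp932 and Crlf2 from a stretch after it that held 8 of the 13 genes called in its interval, and Gltp, the gene called under treatment. That stretch was picked after its values were seen, and 5 of its 8 called genes belong to the set. The sequences are the C57BL/6J reference from RefSeq (GRCm38.p6), not the sequence of the mice studied, and the counts themselves were made with GRCm39. Capitals mark matches, on either strand, to any of 6 short motifs, the AP-1 site, the GC box, the CCAAT box, the TATA box, the core of the interferon-stimulated response element and the site of STAT factors, each spelled out below where its letters allow. The windows were chr5:108388123-108388372, plus strand for Pde6b, chr5:109558994-109559243, minus strand for Crlf2, chr5:109996260-109996509, plus strand for Zfp932, chr5:110109842-110110091, plus strand for Zfp605 and chr5:114690936-114691185, minus strand for Gltp.
Pde6b: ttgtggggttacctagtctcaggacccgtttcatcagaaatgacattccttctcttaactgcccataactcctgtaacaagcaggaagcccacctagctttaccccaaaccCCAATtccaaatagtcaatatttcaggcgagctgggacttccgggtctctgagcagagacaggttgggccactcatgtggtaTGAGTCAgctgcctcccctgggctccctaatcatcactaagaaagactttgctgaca
Crlf2: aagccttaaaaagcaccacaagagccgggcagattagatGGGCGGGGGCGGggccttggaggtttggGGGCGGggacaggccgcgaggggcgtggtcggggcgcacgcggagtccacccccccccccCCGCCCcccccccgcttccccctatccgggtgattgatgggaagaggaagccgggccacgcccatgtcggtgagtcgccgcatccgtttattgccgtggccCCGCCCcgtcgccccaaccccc
Zfp932: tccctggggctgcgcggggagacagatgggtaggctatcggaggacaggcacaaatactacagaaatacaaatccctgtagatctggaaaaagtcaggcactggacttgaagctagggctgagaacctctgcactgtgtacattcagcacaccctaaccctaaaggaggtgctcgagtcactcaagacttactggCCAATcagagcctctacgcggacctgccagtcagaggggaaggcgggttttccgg
Zfp605: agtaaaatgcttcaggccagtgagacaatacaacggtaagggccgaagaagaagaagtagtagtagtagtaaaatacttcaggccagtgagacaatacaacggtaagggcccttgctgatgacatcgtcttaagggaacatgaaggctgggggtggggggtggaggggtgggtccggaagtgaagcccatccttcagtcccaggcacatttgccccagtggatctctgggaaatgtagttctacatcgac
Gltp: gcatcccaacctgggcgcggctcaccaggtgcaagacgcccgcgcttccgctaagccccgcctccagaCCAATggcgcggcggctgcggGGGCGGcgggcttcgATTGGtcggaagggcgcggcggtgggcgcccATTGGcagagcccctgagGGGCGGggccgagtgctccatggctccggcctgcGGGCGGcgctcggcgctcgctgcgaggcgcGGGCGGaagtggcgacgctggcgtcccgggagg
The Pde6b window held 1 match to the AP-1 site TGAGTCA, 57 to 51 bases before the start, a motif present in 4.46% of 32851 promoter windows of this length, and 1 match to the CCAAT box, spelled by its name. The GC box was searched as GGGCGG. Crlf2 held 5 GC boxes and Gltp held 4, a motif present in 32.7% of windows, and Gltp also held 3 CCAAT matches, present in 33.8%. Zfp932 held 1 CCAAT match, and the Zfp605 window had none of the 6 motifs. The TATA box was searched as TATAAA and occurred in 12.4% of all windows. The interferon-response core occurred in 2.98% and the STAT site, searched as TTCNNNGAA, in 7.02%. None of the 10 genes' windows held any of these 3 motifs, and overlapping matches were each counted. GC content was 49.6% for Pde6b, 50.8% for Zfp605, 54.4% for Zfp932, 71.6% for Crlf2 and 76.8% for Gltp, where the median window had 52.4%. These matches describe letters only and say nothing of binding in this tissue.

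The libraries held 39352860 to 56390207 counts in the treated knockout, 38723699 to 50248411 counts in saline knockout libraries and 35155420 to 48717119 counts in FVB libraries. Levels are given as CPM, the count scaled to the TMM-adjusted total of the tested genes in its library, group values are mean ± SD over 4 libraries, and a gene was called at a Benjamini-Hochberg adjusted p under 0.05 by edgeR's quasi-likelihood test over all 19166 tested genes. Nothing in the labels says that samples of a group came from different animals, and p-values then cover only the spread between these samples, which may be technical. In bulk tissue fewer cells of a type and less RNA per cell cannot be told apart. Fmr1, measured as a check of the labels, was at 34.6 ± 0.980 CPM in the treated knockout, 31.7 ± 4.16 in the saline knockout and 95.03 ± 9.41 in FVB, without overlap between knockout and FVB libraries. The granule cell genes of the cerebellum were abundant in every library, with a summed level of 5383 to 5922 CPM over 7 markers. Choroid plexus markers summed to 3662 and 4116 CPM in treated knockout 2 and 3 and 6312 CPM in saline knockout 2, while the sum was 171 to 322 CPM in the remaining 9. Without those 3 libraries 9 of 9 genes of the set kept their sign in saline knockout against FVB, of which 5 passed the threshold that chose them, 8 of 9 kept it in treated knockout against FVB and 7 of 9 in treated against saline knockout.

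Pde6b itself was almost absent from this tissue. It had 0, 4, 1 and 0 counts in treated knockout 1 to 4, 0, 3, 6 and 2 in saline knockout libraries 1 to 4, and 1, 0, 3 and 4 in FVB 1 to 4. The sums of 5, 11 and 8 counts corresponded to 0.0265 CPM (95% exact Poisson interval 0.00859 to 0.0618), 0.0655 (0.0327 to 0.117) and 0.0504 CPM (0.0217 to 0.0993), intervals that cover counting error only and overlap one another. Every group had a library without a count, and a difference between the lines was not detectable at this depth. Without the filter on low counts, where 36598 genes were tested, the log2 fold change was 0.40 (SE 1.23) for saline knockout against FVB and −0.80 (SE 1.28) for treated knockout against FVB. No 50-base stretch of its transcripts occurred in another gene's annotated transcripts.

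Most other genes of phototransduction were at or near 0 as well, and 8 markers of photoreceptors and pinealocytes summed to 0.912 to 2.24 CPM in the 12 libraries. Of 33 genes of the rod and cone cascade 27 were under 1 CPM in every group and 12 passed the filter. Pde6a, the catalytic partner of Pde6b, was at 0.440, 0.446 and 0.288 CPM in the treated knockout, the saline knockout and FVB, and Pde6g, the inhibitory subunit of rods, at 0.946, 0.599 and 0.461 CPM. Pde6d, a carrier of prenylated proteins that many tissues express, was at 39.5, 41.0 and 38.3 CPM. EdgeR's test called 0 of the 12 in each comparison. Among all tested genes it called 2.87% in treated against saline knockout, 1.53% in saline knockout against FVB and 7.05% in treated knockout against FVB. Of the 12, the numbers at an unadjusted p under 0.05 in these comparisons were 4, 0 and 4, and DESeq2 called 0, 0 and 1 and limma-voom 0 in each. Of the 17 tested phosphodiesterases outside the photoreceptor family 1 was called: Pde1b, a calmodulin-dependent enzyme, was at 29.9 CPM in the treated knockout and 30.6 in the saline knockout, against 40.7 CPM in FVB (log2 fold changes −0.44 and −0.41 against FVB, edgeR adjusted p = 3.59e-04 and 0.00279). This count of 1 of 17 stands beside 7.05% and 1.53% of all tested genes called in the same comparisons.

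**Figure D1:**
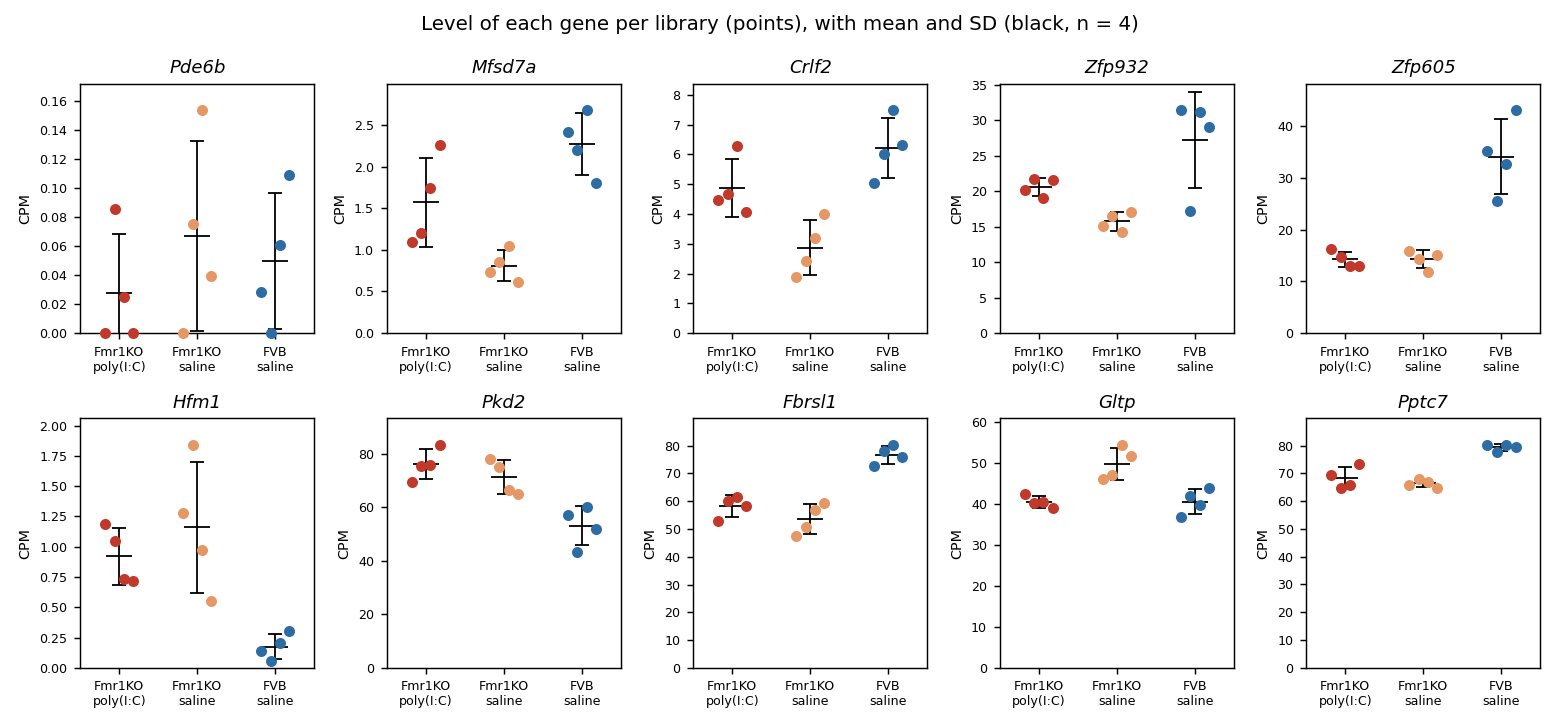
Level in CPM (vertical axes, linear from 0) of the 10 genes in each library, with treated knockout, saline knockout and FVB from left to right; points are libraries and black bars the mean and SD of 4. Pde6b is at 0.154 CPM or less everywhere, and Zfp605 separates both knockout groups from FVB. For Gltp, Mfsd7a, Crlf2 and Zfp932 the treated knockout mean is nearer to FVB than the saline knockout mean, without overlap of these 2 groups. The treated knockout means of Hfm1, Fbrsl1 and Pptc7 are also nearer to FVB, with overlap.

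The zinc finger genes Zfp605 and Zfp932 lie close together, with 4 tested genes between them, and encode proteins of the C2H2 class, whose members bind DNA. Zfp605 was at 16.2, 14.7, 13.0 and 13.1 CPM in treated knockout 1 to 4, 15.9, 14.3, 11.8 and 15.1 CPM in saline knockout libraries 1 to 4, and 35.2, 25.5, 32.7 and 43.1 CPM in FVB 1 to 4. The knockout libraries were all lower than the lowest FVB library, and the treated and saline knockout groups kept 41.7% and 41.8% of the FVB level. On the log2 scale the difference from FVB was −1.26 (SE 0.136) in the treated knockout and −1.26 (SE 0.137) in the saline knockout, the largest fall of the 9 tested genes in the treated knockout. The treated and saline knockout differed by −0.0028 on the log2 scale, with a 95% interval of −0.29 to 0.29.

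Zfp932 was at 20.1, 21.7, 19.1 and 21.6 CPM in treated knockout 1 to 4, 15.1, 16.5, 14.2 and 17.1 CPM in saline knockout libraries 1 to 4, and 31.4, 17.1, 31.1 and 29.1 CPM in FVB 1 to 4. FVB 2 stood apart from its group, just above saline knockout 4 and below every treated knockout library. The log2 fold change was −0.40 (SE 0.146) for treated knockout against FVB and −0.79 (SE 0.147) for saline knockout against FVB, and without FVB 2 these were −0.57 and −0.95. Of the 50-base stretches of Zfp932 transcripts 37.0% also occurred in transcripts of 8 other genes, most of them in Gm15446, its neighbour in the gene order. How the authors counted reads that match several genes is unknown, so the split of counts between these genes is uncertain. Zfp605 shared 2.80% of such stretches.

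Genes close to the pair differed between the lines in both directions. In saline knockout against FVB edgeR called 5430403G16Rik (log2 −1.45, SE 0.252, adjusted p = 0.00373), at 1.91 ± 0.196 CPM in the treated knockout, 1.49 ± 0.452 in the saline knockout and 4.07 ± 1.26 in FVB. It also called 4930522L14Rik (log2 −1.47, SE 0.287, adjusted p = 0.0135), at 2.55 ± 0.658 CPM in the treated knockout, 1.96 ± 0.522 in the saline knockout and 5.43 ± 2.19 in FVB. Gm26779 went the other way, with 2.498, 3.83, 4.84 and 2.99 CPM in treated knockout 1 to 4, 2.45, 3.02, 1.85 and 2.28 CPM in saline knockout libraries 1 to 4, and 0.227, 0.265, 0.487 and 0.464 CPM in FVB 1 to 4. Its log2 fold change was 3.26 (SE 0.289, edgeR adjusted p = 3.59e-07) for treated knockout against FVB and 2.70 (SE 0.289, adjusted p = 2.84e-05) for saline knockout against FVB. Gm15446 was at 18.4 ± 0.791 CPM in the treated knockout, 15.8 ± 2.17 in the saline knockout and 13.3 ± 2.86 in FVB, and passed only in treated knockout against FVB (0.46, SE 0.137, adjusted p = 0.0499).

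FVB 2 was the lowest FVB library for Zfp932, Zfp605, 5430403G16Rik, 4930522L14Rik and Gm15446, and for 4 of the 5 tested genes with a Zfp symbol between Pkd2 and Pptc7. It was also the lowest FVB library for 177 of 366 Zfp genes elsewhere in the genome (48.4%) and for 26.7% of all tested genes, so its low zinc finger levels were not limited to this stretch. The part of this library in the line differences was measured by leaving it out, and Zfp605 kept a log2 fold change of −1.37 for saline knockout against FVB without it.

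**Figure D2:**
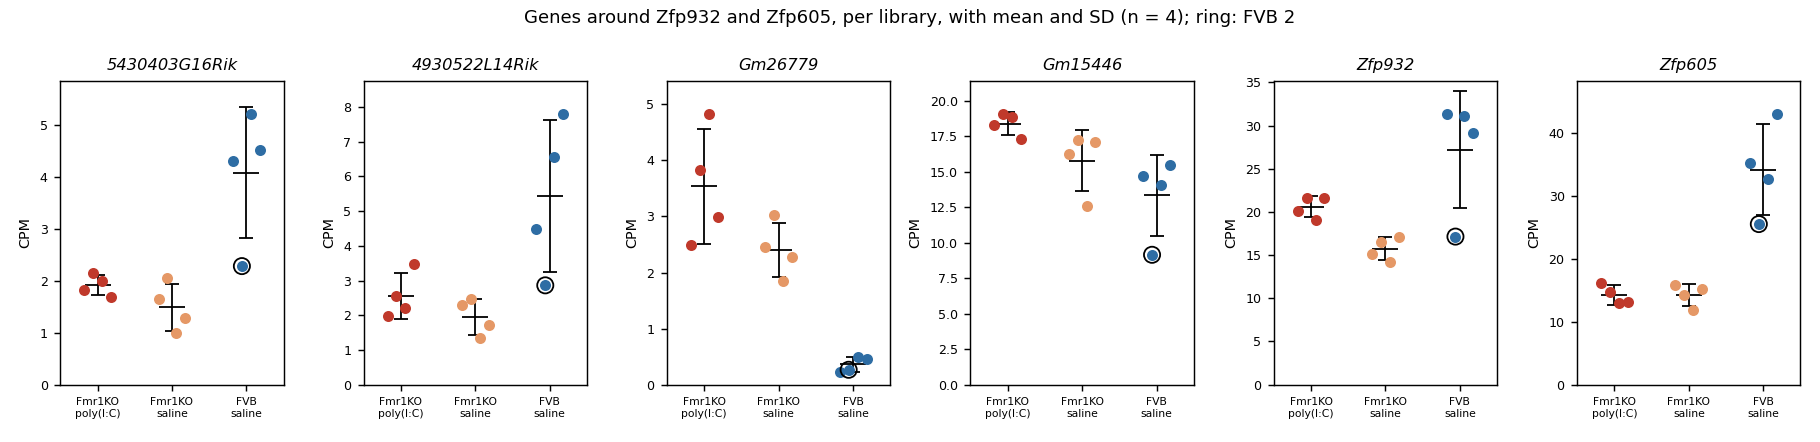
Level in CPM (vertical axes, linear from 0) of 6 genes of the stretch that holds Zfp932 and Zfp605, per library, with treated knockout, saline knockout and FVB from left to right; black bars give the mean and SD of 4 and rings mark FVB 2. FVB 2 is the lowest FVB point in every panel but that of Gm26779, where the highest FVB library is at 0.487 CPM and the lowest knockout library at 1.85 CPM.

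Hfm1, a DNA helicase required for crossovers in meiosis, had low levels that were higher in both knockout groups. It was at 1.19, 1.05, 0.730 and 0.716 CPM in treated knockout 1 to 4, 1.28, 1.84, 0.974 and 0.550 CPM in saline knockout libraries 1 to 4, and 0.142, 0.0530, 0.203 and 0.301 CPM in FVB 1 to 4. These are 29 to 67 counts in the treated knockout, 28 to 73 counts in saline knockout libraries and 2 to 11 counts in FVB libraries, without overlap between the lines. Its log2 fold change over FVB was 2.38 (SE 0.445) in the treated and 2.70 (SE 0.445) in the saline knockout, and the treated and saline knockout did not separate (−0.32, 95% interval −1.10 to 0.46, and 0.05 without the 3 libraries high in choroid plexus markers).

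Pkd2 encodes polycystin-2, a cation channel of primary cilia and the endoplasmic reticulum mutated in polycystic kidney disease. It was also higher in both knockout groups, by less. Its level was 69.6, 75.5, 75.6 and 83.2 CPM in treated knockout 1 to 4, 78.0, 75.0, 66.6 and 64.9 CPM in saline knockout libraries 1 to 4, and 56.96, 43.4, 60.1 and 51.7 CPM in FVB 1 to 4. All knockout libraries lay above all FVB libraries, with log2 fold changes of 0.52 (SE 0.0919) in the treated and 0.42 (SE 0.0920) in the saline knockout. Of 13 tested polycystin and cilium genes, Pkd2l1, a polycystin-related channel, fell in saline knockout against FVB (0.814 against 2.12 CPM, log2 −1.38, edgeR adjusted p = 0.0411) and Ift140, a cilium transport gene, rose in treated knockout against FVB (28.1 against 23.3 CPM, log2 0.27, adjusted p = 0.0459). No gene of the list passed in both, where 1.53% and 7.05% of all tested genes were called.

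Fbrsl1, a relative of the autism gene Auts2, was lower in both knockout groups. It was at 52.7, 60.3, 61.5 and 58.4 CPM in treated knockout 1 to 4, 47.3, 50.9, 56.9 and 59.2 CPM in saline knockout libraries 1 to 4, and 72.6, 78.2, 80.2 and 75.9 CPM in FVB 1 to 4. The groups did not overlap between the lines, and the log2 fold change was −0.40 (SE 0.0747) in the treated and −0.52 (SE 0.0749) in the saline knockout. Of 13 genes of the AUTS2 and polycomb complexes 2 rose in treated knockout against FVB, Pcgf5 (32.1 against 21.9 CPM, log2 0.55, edgeR adjusted p = 1.84e-04) and Ring1 (25.1 against 18.9 CPM, log2 0.41, adjusted p = 0.0130), both of polycomb repressive complex 1, where 7.05% of all tested genes were called. Pcgf3, another subunit of that complex and the third tested gene after Pde6b, was at 48.6 ± 1.22 CPM in the treated knockout, 47.0 ± 2.83 in the saline knockout and 51.7 ± 3.96 in FVB and was not called.

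Pptc7, a protein phosphatase of mitochondria that limits mitophagy, showed the smallest line difference among the genes that kept it in both knockout groups. Its level was 69.3, 64.7, 65.8 and 73.2 CPM in treated knockout 1 to 4, 65.8, 68.1, 66.7 and 64.8 CPM in saline knockout libraries 1 to 4, and 80.05, 77.6, 80.1 and 79.5 CPM in FVB 1 to 4. The log2 fold change was −0.22 (SE 0.0572) in the treated and −0.26 (SE 0.0573) in the saline knockout, and without the 3 libraries high in choroid plexus markers the treated knockout value was −0.15. Rad9b lies on the opposite strand and overlaps 21.2% of the exonic bases of Pptc7. It had 1212 counts over all libraries, against 36651 for Pptc7, and without a stated strand setting reads from the overlap cannot be assigned.

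Gltp, which moves glycosphingolipids between membranes, was highest in the saline knockout. It was at 42.3, 40.1, 40.5 and 39.0 CPM in treated knockout 1 to 4, 46.1, 46.9, 54.3 and 51.6 CPM in saline knockout libraries 1 to 4, and 36.7, 41.9, 39.6 and 43.8 CPM in FVB 1 to 4. All saline knockout libraries lay above all others, while treated knockout and FVB libraries overlapped. The log2 fold change was −0.0013 (SE 0.0731) for treated knockout against FVB and 0.30 (SE 0.0730) for saline knockout against FVB. Gltp stood just inside the threshold that chose the set, and it passed in 1 of 12 fits that left out a library each. Just outside stood Tmed5, which encodes a secretory pathway protein, at 26.5 ± 2.96 CPM in the treated knockout, 26.3 ± 3.76 in the saline knockout and 35.9 ± 4.54 in FVB (log2 −0.45 for saline knockout against FVB), and it was called in treated knockout against FVB (log2 −0.44, edgeR adjusted p = 0.0237). Pptc7 passed in 5 and Pkd2 in 8 of those 12 fits. Of 15 tested glycosphingolipid genes 1 was called: Vapa, an endoplasmic reticulum tether to which Gltp binds, fell in treated knockout against FVB (123 against 145 CPM, log2 −0.24, edgeR adjusted p = 0.0241). That is near the 7.05% of all tested genes called in this comparison.

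Mfsd7a, a transporter of the SLC49 family and the second tested gene after Pde6b, and Crlf2, the receptor chain for the cytokine thymic stromal lymphopoietin, were likewise furthest from FVB in the saline knockout. Mfsd7a was at 1.10, 1.20, 1.74 and 2.26 CPM in treated knockout 1 to 4, 0.730, 0.857, 1.05 and 0.609 CPM in saline knockout libraries 1 to 4, and 2.42, 2.20, 2.68 and 1.80 CPM in FVB 1 to 4. Its mean was 69.2% of the FVB mean in the treated knockout (log2 −0.54, SE 0.252) and 35.7% in the saline knockout (log2 −1.49, SE 0.265). Treated knockout 4 lay inside the FVB range and the other 3 below it.

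Crlf2 was at 4.47, 4.67, 6.27 and 4.06 CPM in treated knockout 1 to 4, 1.88, 2.42, 3.18 and 4.01 CPM in saline knockout libraries 1 to 4, and 5.03, 6.02, 7.48 and 6.31 CPM in FVB 1 to 4. Treated knockout 3 fell inside the FVB range, and saline knockout 4 lay just below the lowest treated library. The log2 fold change was −0.36 (SE 0.206) for treated knockout against FVB, or −0.54 without the 3 libraries high in choroid plexus markers, and −1.11 (SE 0.211) for saline knockout against FVB. Of 14 tested genes of this cytokine's signalling, not all of which are reported here, edgeR called 2 in treated against saline knockout. In saline knockout against FVB it called 1, and in treated knockout against FVB 5. Of all tested genes 2.87%, 1.53% and 7.05% were called in these comparisons. Jak3, a kinase of cytokine receptors, rose on treatment (7.46 CPM in the treated and 4.53 CPM in the saline knockout, log2 0.72, edgeR adjusted p = 0.0207). Il7, which encodes interleukin-7, rose in saline knockout against FVB (0.641 against 0.146 CPM, log2 2.08, adjusted p = 0.0140) and in treated knockout against FVB (0.558 against 0.146 CPM, log2 1.89, adjusted p = 0.00906). In treated knockout against FVB Socs3, a feedback inhibitor, rose (log2 1.54, adjusted p = 0.00790) and Il7r, the chain that pairs with Crlf2, fell (18 against 52 counts in all, log2 −1.74, adjusted p = 0.0486). Jak3 was also higher in treated knockout against FVB (log2 0.78, adjusted p = 0.00659), and it acts with other cytokine receptors too.

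Treated against saline knockout is the comparison that did not choose the genes, and it asks how their levels responded to poly(I:C). It shares the saline knockout libraries with the comparison that chose them, so the fold changes of both are not independent. Genes chosen for saline knockout levels far from FVB can differ from the treated knockout through that choice alone. The counts and medians of the set below are therefore a description and do not show a larger response than in other genes. Of the 9 tested genes 1 was called: Gltp fell, with a log2 fold change of −0.30 (SE 0.0728, edgeR adjusted p = 0.0309). Among all tested genes 2.87% were called and 1.06% were called lower in the treated knockout. Mfsd7a differed by 0.95 (SE 0.266, adjusted p = 0.0598), Crlf2 by 0.75 (SE 0.211, 0.0618) and Zfp932 by 0.39 (SE 0.147, 0.199) by the same edgeR test, and each missed the threshold although its treated and saline knockout libraries did not overlap. Including Gltp, 4 of 9 genes had no overlap, where 9.75% of all tested genes had none. The median over the 9 was 0.10 on the log2 scale and 0.30 in absolute size, beside −0.0017 and 0.129 over all tested genes.

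The Gltp call rested on single libraries: it was lost without treated knockout 2 (edgeR adjusted p = 0.0857), 3 (0.0938) or 4 (0.0992) and without saline knockout 3 (0.115) or 4 (0.0602), while the log2 fold change stayed between −0.33 and −0.25. Without the 3 libraries high in choroid plexus markers it was −0.32 (adjusted p = 0.296), in a fit of 2 treated and 3 saline knockout libraries. Leaving out 1 library also brought calls: Mfsd7a without treated knockout 1 (log2 1.10, adjusted p = 0.0308), Crlf2 without saline knockout 4 (0.96, 0.0137) and Zfp932 without FVB 2 (0.39, 0.0141). DESeq2 called Mfsd7a (adjusted p = 0.0206), Crlf2 (0.0131) and Gltp (0.00581). Without the 3 libraries high in choroid plexus markers the treated against saline difference of Mfsd7a was 1.07 and that of Crlf2 0.49.

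Of the cell type markers, not all of which are reported here, 2 of 5 microglia genes fell in treated against saline knockout, where 1.06% of all tested genes were called lower, P2ry12 (log2 −0.62, edgeR adjusted p = 0.0165) and Csf1r (−0.41, 0.0372), and the 5 genes summed to 81.4 to 101 CPM in the treated knockout, 91.3 to 113 CPM in saline knockout libraries and 102 to 114 CPM in FVB libraries. Opalin fell (5.80 against 14.05 CPM, log2 −1.27, edgeR adjusted p = 2.02e-04), while the 5 oligodendrocyte genes that include it had a median log2 fold change of 0.012. These 5 summed to 5194 to 7006 CPM in the treated and 5486 to 6046 CPM in the saline knockout. Of 6 astrocyte genes 1 was called lower in the treated than in the saline knockout, the water channel Aqp4 (log2 −0.36, edgeR adjusted p = 0.0368). The 6 had a median log2 fold change of −0.057. They summed to 2481 to 2817 CPM in the treated and 2718 to 3035 CPM in the saline knockout. The part of cell composition in the changes of Gltp, Mfsd7a and Crlf2 was not tested.

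The remaining 5 genes gave intervals around 0 for treated against saline knockout. The 95% interval of the log2 difference was −0.08 to 0.16 for Pptc7, −0.04 to 0.28 for Fbrsl1 and −0.10 to 0.29 for Pkd2, and none of these was called. The intervals of Zfp605 and Hfm1, given above, also span 0, and that of Hfm1 is the widest of the 9.

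**Figure D3:**
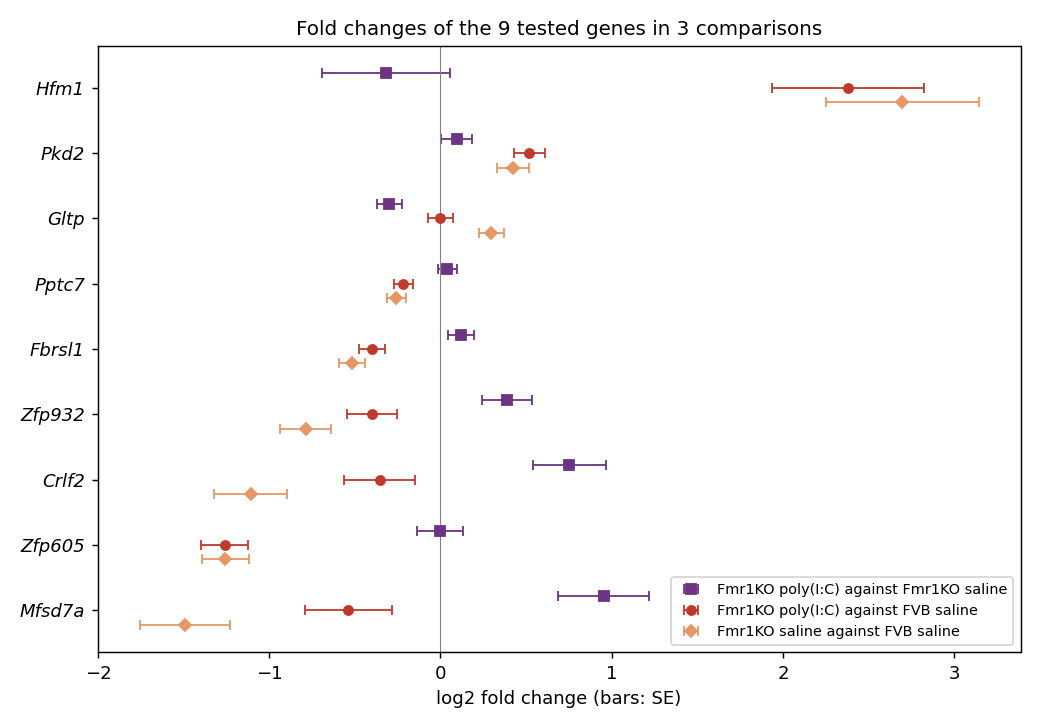
Log2 fold change (horizontal axis, bars are SE) of the 9 tested genes for treated against saline knockout (squares), treated knockout against FVB (circles) and saline knockout against FVB (diamonds). Pkd2, Zfp605, Fbrsl1 and Pptc7 have circles and diamonds close together and squares near 0. Hfm1 has its square at −0.32 with the widest bar of the squares (SE 0.373). Gltp has its circle at 0 and its square and diamond on opposite sides.

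Along the chromosome, Pkd2 came first and Pptc7 last, and 252 tested genes lay from the one to the other in the annotation order. Between neighbouring tested genes of the set there were 18 (Pkd2 to Hfm1), 29 (to Mfsd7a, across Pde6b), 9 (to Crlf2), 7 (to Zfp932), 4 (to Zfp605), 9 (to Fbrsl1), 53 (to Gltp) and 114 other tested genes (to Pptc7). In saline knockout against FVB 13 of the 252 were called, and 9 of them are the genes of the set, which were picked from these calls and mark the ends of the interval. Of the 243 other genes 4 were called, near the 1.53% of all tested genes. These 4 were Gbp6, 5430403G16Rik, 4930522L14Rik and Gm26779. Gbp6, an interferon-inducible GTPase, was at 7.59 ± 1.52 CPM in the treated knockout, 1.53 ± 0.606 in the saline knockout and 0.548 ± 0.222 in FVB (saline knockout against FVB, log2 1.46, edgeR adjusted p = 0.0252). In treated knockout against FVB 30 of the 252 were called, 5 of them genes of the set, against 7.05% of all tested genes, and 12 of the 30 were guanylate-binding protein and oligoadenylate synthetase genes, interferon-inducible families that share this interval. Saline knockout and FVB libraries did not overlap for any of the 9 genes of the set, which follows from how they were chosen (7.02% of all tested genes had no overlap). Treated knockout and FVB libraries did not overlap for 5 of the 9 (14.2% of all tested genes had no overlap). The genes were listed for differences between knockout and FVB, and the FVB libraries are shared by both comparisons. This count therefore describes the choice as well and is no test.

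The stretch from Mfsd7a to Fbrsl1, picked after its values were seen, held 34 tested genes. In saline knockout against FVB 8 of them were called, 7 lower and Gm26779 higher in the knockout, where 1.53% of all tested genes were called. Of these 8, 5 are genes of the set, picked from these calls, so the count follows largely from the choice of genes and stretch. Of the 26 genes of the stretch that were not called, 12 had negative and 14 positive fold changes, with a median absolute log2 fold change of 0.17. The 218 other tested genes of the interval held 5 of the 13 calls. Of the 40 tested genes nearest to Pde6b, 20 on each side, 7 were called in treated knockout against FVB, of which Tmed5 lies before Pde6b and 6 after it. Among all tested genes 7.05% were called there. In saline knockout against FVB 6 were called, all after Pde6b, where 1.53% of all tested genes were called. Of these 6, 3 are genes of the set picked from these calls, Mfsd7a, Crlf2 and Zfp932. Atp5k, a subunit of mitochondrial ATP synthase and the first tested gene after Pde6b, was at 48.0 ± 10.0 CPM in the treated knockout, 49.7 ± 2.37 in the saline knockout and 47.8 ± 9.03 in FVB and was not called (log2 0.06, edgeR adjusted p = 0.935). The 3 tested genes before Pde6b, Gm10419, Gm42517 and Gm42518, had log2 fold changes of 0.02, −0.25 and 0.09 and were not called (edgeR adjusted p = 0.973, 0.595 and 0.973).

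**Figure D4:**
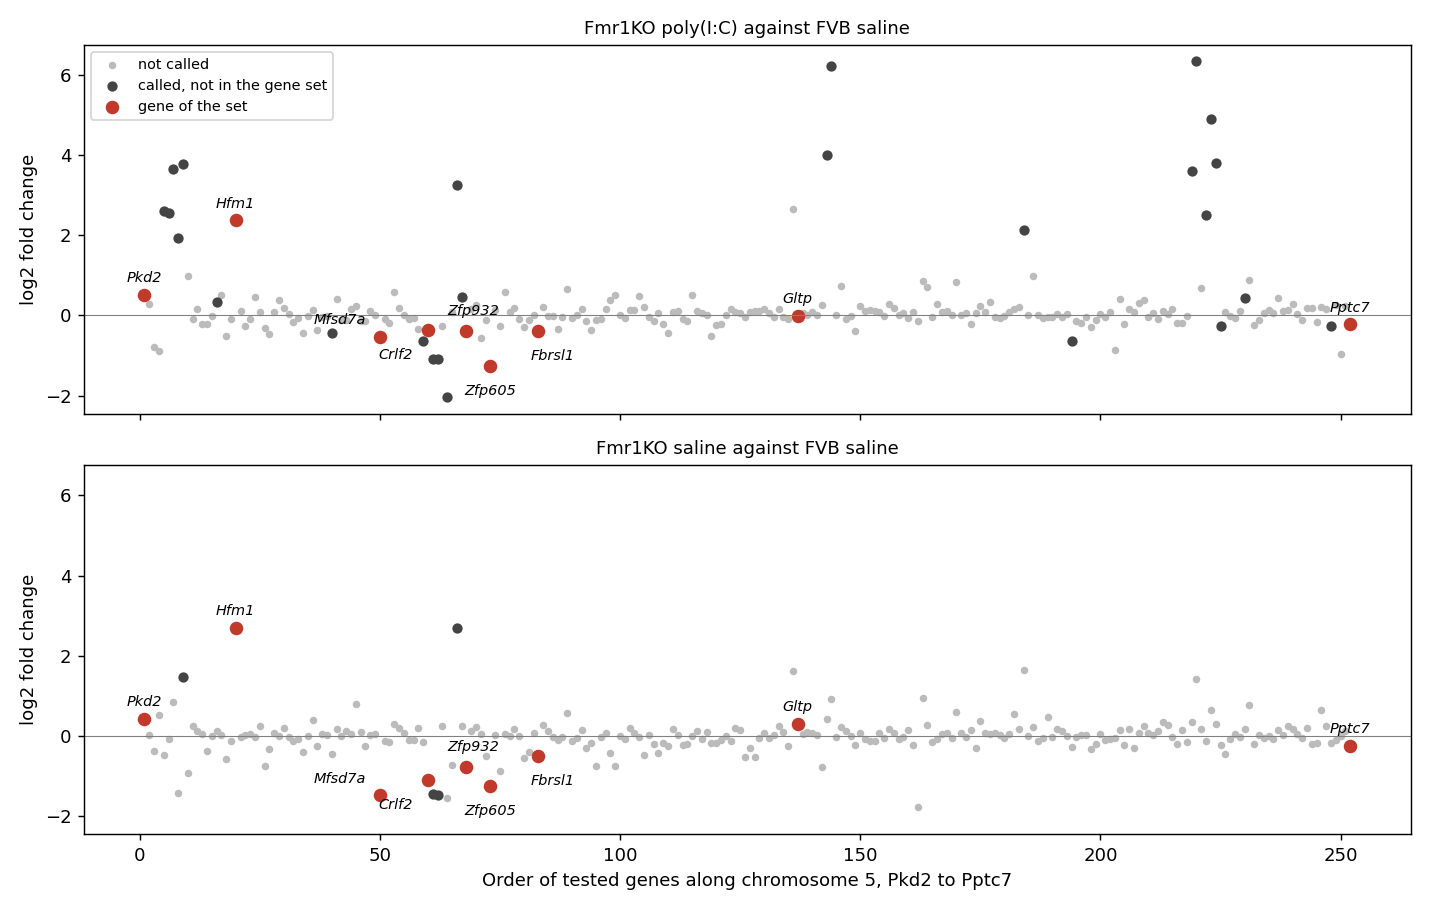
Log2 fold change (vertical axes) of the 252 tested genes from Pkd2 to Pptc7 against their order along chromosome 5 (horizontal axis), for treated knockout against FVB (upper panel) and saline knockout against FVB (lower panel); red points are the 9 genes of the set, dark grey points other called genes and light grey points genes not called. The lower panel has 5 of the 9 red points between order 50 and 83, and the upper panel has dark points up to 6.34 that belong to oligoadenylate synthetase genes.

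Per length, using the merged exonic bases of GENCODE M21, the levels of the 9 genes in FVB were ordered Gltp (22.99 CPM per kb), Pptc7 (16.8), Zfp605 (9.76), Fbrsl1 (9.50), Zfp932 (8.31), Pkd2 (5.21), Crlf2 (4.15), Mfsd7a (0.907) and Hfm1 (0.0261). In the saline knockout Zfp605 was at 4.08 CPM per kb and stood below Zfp932 (4.81), Fbrsl1 (6.63) and Pkd2 (7.00). From Zfp605 to Crlf2 the FVB libraries of each neighbouring pair in this order overlapped, and those of the other neighbouring pairs did not.

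The genes most like each tested gene over the 12 libraries were ranked by the root-mean-square difference of centred log2 CPM. Of the 45 genes named as the 5 nearest to each, 3 lay on chromosome 5. That chromosome held 252 tested genes in the interval and 1006 outside it, among 19166 tested genes, and the count of 3 was not tested against this share. The nearest to Zfp605 was Fmr1 (0.216, where Zfp605 itself varied by 0.616 on this measure), followed by Fcrls (0.220). The nearest to Pkd2 was Ica1l (0.0830, of 0.265), to Crlf2 Cyp11a1 (0.225, of 0.561), to Mfsd7a Slc2a4 (0.297, of 0.670) and to Gltp Slc25a18 (0.0675, of 0.162). The measure was meant for Pde6b, whose counts are too few for it, and was applied to the 9 tested genes after their values were seen. It follows the differences between groups and is a description only.

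Beyond the lists already given, edgeR's test called 0 members in meiotic crossover (13 tested), SLC49 transporter (3), PPTC7 partner (9) and zinc finger cofactor genes (12) in the 3 comparisons. Of all tested genes it called 2.87% for treated against saline knockout, 1.53% for saline knockout against FVB and 7.05% for treated knockout against FVB. Counts at an unadjusted p under 0.05 for treated against saline knockout, saline knockout against FVB and treated knockout against FVB were 7, 1 and 7 over these and the phototransduction list together (49 tested, DESeq2 0, 0 and 1, limma-voom 0, 0 and 0).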

How the data were processed

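Per the submitters' processing notes, reads were trimmed with Trim Galore, aligned with HISAT2 and counted with featureCounts on GRCm39, without versions or settings, and the authors deposited raw counts per Ensembl gene for 12 libraries. RNA was isolated with TRIzol and DNase I, and libraries were made with a TruSeq kit, per the labels' protocols. The sources used here do not give the strand setting, the annotation release or how multiply matching reads were handled.

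Symbols and gene order came from GENCODE M21, which annotates GRCm38 and served only for names, neighbours, exonic lengths and overlaps; 52081 of 57010 identifiers matched. The 10 members and the gene lists were chosen with earlier results of these data known. The filterByExpr function of edgeR (counts of at least 10, totals of at least 15) left 19166 genes. After TMM scaling edgeR 4.0.16 fitted them (robust quasi-likelihood, 3 group means, 9 residual degrees of freedom), with Benjamini-Hochberg adjustment over all tested genes. Fold changes are log2, their SE was taken as the size of the log2 value divided by the root of F, and 95% intervals use the fit's degrees of freedom. The fit was tested on simulated data. Libraries held 35155420 to 56390207 counts. Replicates of each group differed by far more than sampling noise (chi-square over degrees of freedom 12.6 to 37.3).

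Named genes were the 10 members, Fmr1, the 3 tested genes on each side of Pde6b, called genes of the interval, called list members and the genes of most like pattern; Tmed5 and Gm15446 were added after their values were seen. Alternatives were DESeq2 1.42.0, limma-voom (limma 3.58.1), RLE and upper quartile scaling, no filter, at least 10 counts in 8 libraries, only the groups compared, a replicate block, no robust estimation and each library left out. A fit without 3 libraries whose Ttr, a choroid plexus gene, exceeded 1000 CPM was added after seeing the data. The likeness measure could not be applied to Pde6b, which failed the filter, so it was applied to the 9 tested members. Results for some called list members are not reported here.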

Additional observations from a re-analysis of the deposited data

Results flagged for a closer look

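Zfp932 in FVB 2 was at 17.1 CPM, far from 29.1 to 31.4 CPM in the other FVB libraries, and its gap to the nearest of them made up 0.839 of the group's range, above Dixon's 95% critical value for 4 samples. It was the 1 such value among 27 sets of 4 libraries tested for the 9 genes, and chance gives about 1 in 20.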

How the results depend on the processing

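The 27 member fold changes, 9 in each of 3 comparisons, were recomputed under 22 alternatives. For treated against saline knockout 1 of 9 members was called, and 3 by DESeq2, 3 without the filter (with Mfsd7a, adjusted p = 0.0310, and Crlf2, 0.00596), 2 in a fit of only the groups compared (with Zfp932, 0.0341), 0 to 2 when single libraries were left out and 0 without the 3 libraries high in Ttr. RLE and upper quartile scaling, limma-voom, the stricter filter and the fit without robust estimation kept the count at 1. With a replicate block 2 members were called, Gltp (0.0476) and Crlf2 (0.0304). The deviations of same-numbered libraries from their group means had correlations of −0.0987 to 0.145 over 12 pairs. These values show no clear pairing by number, and low correlations over all genes cannot exclude one. Over all genes, calls for treated against saline knockout numbered 550, with 986 by DESeq2, 215 without the 3 libraries and 347 to 689 when single libraries were left out. For saline knockout against FVB there were 294, with 633 by DESeq2, 506 without the filter and 156 to 300 when single libraries were left out. For treated knockout against FVB there were 1352, with 556 without the 3 libraries and 791 to 1542 when single libraries were left out. Calls between Pkd2 and Pptc7 for saline knockout against FVB numbered 13, with 20 without the filter, 8 without the 3 libraries and 9 to 13 when single libraries were left out, and for treated knockout against FVB 30, with 19 without the 3 libraries and 23 to 33 when single libraries were left out. Apart from the construction of each alternative, the cause of these shifts was not tested. Depth limited Pde6b, with at most 6 counts in a library, and Hfm1 in FVB.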
